A study of Mus musculus with 6 samples.

Results

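To ask whether the loss of Sox4 and Sox11 together changed a gene by more or less than the losses of each gene added up, the double knockout was set against the sum of both single knockouts, probe by probe. The comparison used all 6 arrays of the series, each a 2-color hybridization of knockout and wild-type littermate epidermis at embryonic day 16. The labels give the strain as 129SvEx:C57BL/6, and by the study's methods the Krt14-Cre parent was FVB/N. There were 2 arrays for each of 3 genotypes: Sox4cKO (Krt14-Cre with Sox4 fl/fl), Sox11cKO (Krt14-Cre with Sox11 fl/fl) and Sox4/11 dcKO (Krt14-Cre with both floxed genes). Replicate 1 carried the knockout in Cy5 and replicate 2 carried it in Cy3. Krt14-Cre acts in keratinocytes, so cells of the sheet without Krt14 expression in their history kept both genes. The floxed stock of the study also carried Sox12-/-, and the labels do not give the Sox12 genotype of these embryos.

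Each array gave a log2 ratio, knockout against its wild-type littermate, and the departure of a probe was that ratio in dcKO minus the ratios of Sox4cKO and Sox11cKO added together. A departure of 0 means that the folds of the single knockouts multiply to that of dcKO, and a positive departure means that dcKO lay above the sum. By limma over all 55681 probes, with a Benjamini-Hochberg adjusted p below 0.05 and an absolute departure above 1.5, 49 probes were called (0.088%). Of these, 40 lay above the sum (0.0718% of probes) and 9 lay below it (0.0162%). The called probes named 31 genes above and 7 genes below the sum (0.0327% of named genes), and another 7 called probes had no gene name (6 above and 1 below).

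The departure carries the error of 3 genotypes. Its median standard error was 0.242 on the log2 scale, 1.73 times that of a single genotype (0.14), and the median 95% interval was ±0.55. Between 38.9% and 43.6% of spots in each channel were well above background and none was saturated. The number of arrays limits the precision. The sign of the departure was the same in replicate 1 and replicate 2 for 49.9% of all probes. It was the same for all 49 called probes, which the call, made on these same replicates, nearly fixes. An unadjusted p below 0.05 was reached by 3553 probes (6.38%), where 2784 would be so with no departure anywhere.

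SOX4 and SOX11 are closely related transcription factors of the SOXC group that are active in embryonic progenitors of many tissues and bind similar DNA. In the epidermis, keratinocytes leave the basal layer, switch from Krt5 and Krt14 to Krt1 and Krt10, and finally crosslink small proteins into the cornified envelope. Many of those proteins, among them the late cornified envelope (LCE) proteins, the small proline-rich proteins (SPRR), loricrin, involucrin and filaggrin, are encoded side by side in the epidermal differentiation complex.

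The targeted genes were read first. One probe of Sox4 read −1.66 and −2.26 on the Sox4cKO arrays, 0.07 and 0.09 on the Sox11cKO arrays and −1.55 and −1.61 on the dcKO arrays. Of the knockout channels of Sox4cKO and of dcKO, 0 of 2 read well over background in each, so these falls are bounded by the background and give no exact departure. A brighter Sox4 probe read −0.14 and −0.71, 0.05 and 0.18, and −0.96 and −0.69 on the same arrays. The brighter Sox11 probe read 0.26 and −0.17 on the Sox11cKO arrays and −0.96 and −0.48 on the dcKO arrays. It was well above background in 0 of 2 knockout channels and 1 of 2 wild-type channels of Sox11cKO. The other Sox11 probe was above background in none of these 4 channels. Neither probe therefore checks the Sox11cKO label. The study reports that RT-qPCR on the isolated epidermis showed the loss of the targeted genes in each knockout before the arrays were run. Sox12, the other SOXC gene, departed by −0.14 (−0.86 to 0.58). Its probe was well above background only in 1 wild-type channel of Sox11cKO, so this value was read near background.

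The sum itself held little. At the same thresholds 115 probes were called in dcKO against wild type (0.207%), 96 of them higher and 19 lower (0.172% and 0.0341%). There were 3 in Sox4cKO (0.00539%; Tes, Plppr3 and the Sox4 probe, all lower), 0 in Sox11cKO and 0 in the sum of the single knockouts, for which 4579 probes had an unadjusted p below 0.05. The single-knockout arrays alone therefore gave almost no called gene whose change could be added up. Of the 49 called departures, 45 were also called in dcKO alone. All 40 probes above the sum read higher on both dcKO arrays than on any of the 4 single-knockout arrays. The same, in the other direction, held for 8 of the 9 probes below the sum.

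**Figure D1:**
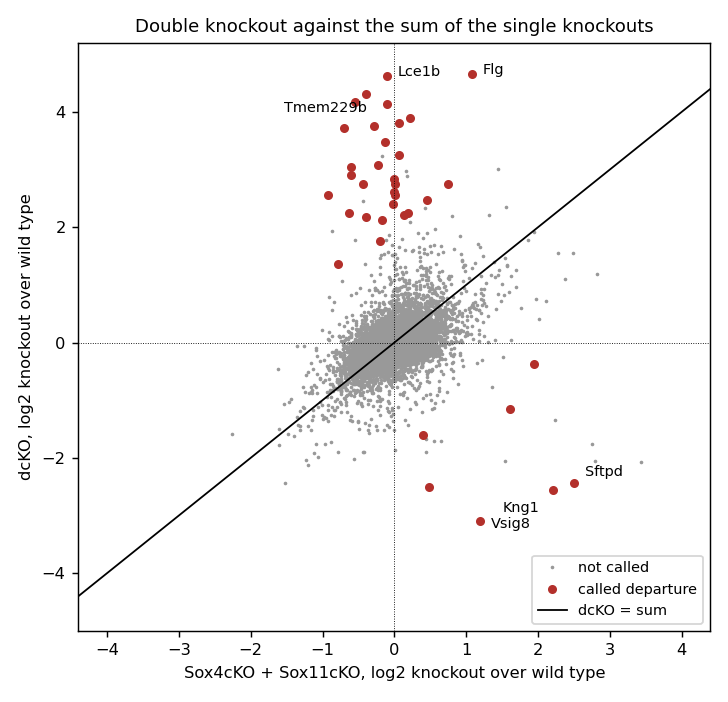
Each point is a named gene with signal above background (1 probe per gene), at its summed log2 ratio of the single knockouts (x) and its log2 ratio in dcKO (y), with called departures in red and the line where dcKO equals the sum. The genes called above the line lie between −0.93 (Krt72) and 1.08 (Flg) on x, and those called below it between 0.40 (Vnn1) and 2.50 (Sftpd).

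Genes called above the sum were led by the Lce1 family, whose proteins are laid down late in the cornified envelope. Of the 15 genes in the Lce1 list (14 Lce1 genes and 2310050C09Rik, which lies beside them), 14 were called above the sum, where 0.14% of all named genes were. The remaining one, Lce1e, departed by 2.89 with an adjusted p of 0.105. The median departure of the list was 3.60 (4.32 in replicate 1 and 2.66 in replicate 2), against −0.01 over all 21393 named genes. The list's median log2 ratio was −0.03 in Sox4cKO, −0.19 in Sox11cKO and 3.07 in dcKO.

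Lce1b had the largest called departure, 4.73 (95% interval 4.23 to 5.23, adjusted p 0.000467). Its log2 ratio was 4.22 and 5.03 on the dcKO arrays, −0.52 and 0.45 on the Sox4cKO arrays and −0.48 and 0.34 on the Sox11cKO arrays. The dcKO values were far from all 4 others. The smallest departure among the called genes of the list was that of Lce1f, 2.55 (1.98 to 3.13, adjusted p 0.00894). On the Sox4cKO arrays the sign of the list went with the replicate: all 15 genes read below 0 in replicate 1 (median −0.72) and all 15 above 0 in replicate 2 (median 0.57). On the dcKO arrays all 15 read above 0 in both, with medians of 2.89 and 3.31.

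The level at which these genes were read differed between the arrays, in the wild-type channel as well. On log2 channel levels scaled alike across arrays, the median of the list in wild type was 13.3 and 8.66 on the Sox4cKO arrays, 5.30 and 4.85 on the Sox11cKO arrays, and 10.9 and 10.3 on the dcKO arrays. The knockout channel read 12.6 and 9.16, 4.91 and 4.84, and 13.8 and 13.3 in the same order. On the Sox11cKO arrays the genes were thus at or near background in both channels: in wild type 9 and 3 of the 15 genes were well above background, and in the knockout 4 and 2. For most Lce1 genes the Sox11cKO term of the sum was therefore taken where little signal was measured in either genotype, and a fold in Sox11cKO cannot be read from it. Why the wild-type levels differed was not tested. With the Sox11cKO term left out, the median of the list in dcKO minus Sox4cKO was 3.11, and 14 of the 15 genes had an adjusted p below 0.05 for that difference, where 0.276% of named genes did.

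**Figure D2:**
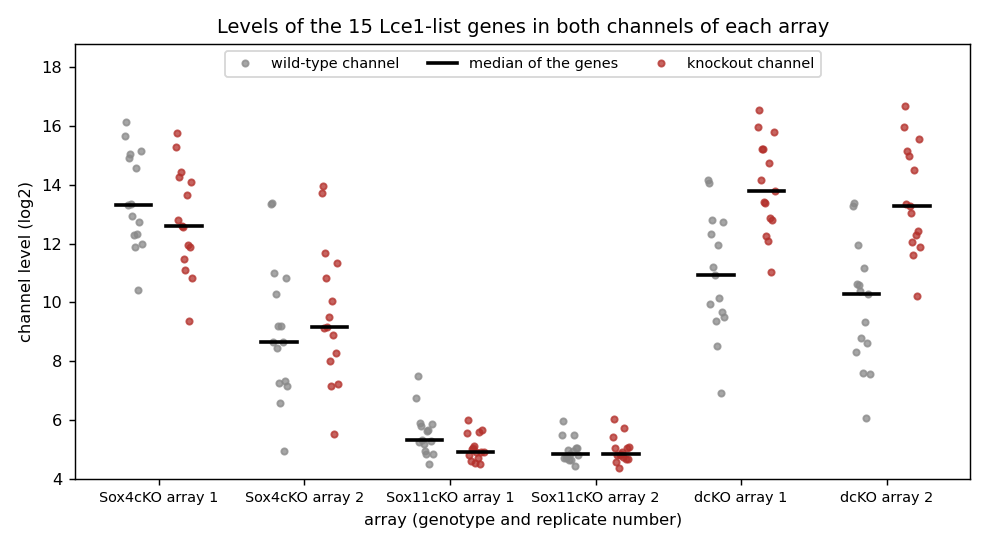
Log2 channel levels of the 15 genes of the Lce1 list, in the wild-type (grey) and knockout (red) channel of each of the 6 arrays, with the median as a bar. The medians in wild type run from 4.85 on a Sox11cKO array to 13.3 on a Sox4cKO array, and the knockout lies above the wild type by about the same distance on both dcKO arrays.

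The called Lce1 genes are neighbors on chromosome 3. In the RefSeq gene order, the run from Pglyrp4 to Tchhl1 that holds the listed genes of the complex has 56 protein-coding genes. Of that run 17 genes were called above the sum, where 0.14% of all named genes were. Below the sum 0 were called, where the share among all named genes was 0.0327%, so that count says little. The called genes outside the Lce1 list were Lelp1, Kprp and Flg. The Sprr genes, the Lce3 genes, Lce6a, Lor and Ivl, which lie in the same run, were not called. RefSeq promoters were found for 14 genes of the Lce1 list, 13 of them called (Lce1e was not, and Lce1f had no entry), and examples are shown because most of the family was called. Of those 14, 10 hold the TATA-like letters ATAAAAG on the gene's strand within the last 60 bases, beginning 28 or 29 bases before the start, where 1.36% of 27025 promoters do. The last 120 bases before the start are given on the gene's strand, with each ATAAAAG in capitals, for Lce1c (GRCm38.p6, chr3:92679127-92679246, plus strand), Lce1h (chr3:92765066-92765185, minus strand), Lce1m (chr3:93019062-93019181, minus strand) and Lce1b (chr3:92656927-92657046, minus strand), which does not hold those letters.
Lce1c: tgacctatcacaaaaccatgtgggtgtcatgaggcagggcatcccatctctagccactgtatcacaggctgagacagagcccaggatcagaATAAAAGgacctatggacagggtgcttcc
Lce1h: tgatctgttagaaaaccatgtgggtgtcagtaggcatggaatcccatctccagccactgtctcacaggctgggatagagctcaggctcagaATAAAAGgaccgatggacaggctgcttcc
Lce1m: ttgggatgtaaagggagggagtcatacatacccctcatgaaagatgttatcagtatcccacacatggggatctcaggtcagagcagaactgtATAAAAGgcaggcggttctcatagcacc
Lce1b: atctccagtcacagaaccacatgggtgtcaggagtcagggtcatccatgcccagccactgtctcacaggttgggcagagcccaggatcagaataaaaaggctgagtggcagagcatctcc
The letters actgtctcacagg occur in 7 of the 14 and in no other promoter of the table. In the 250 bases before the start, the SOX letters AACAAAG and AACAATG and the AP-1 letters TGANTCA, searched on both strands, were found in 0 of the 14, and in 4.99%, 3.36% and 6.87% of all promoters. Likeness between these genes also bears on the arrays, since a probe for one copy may bind RNA of another, and that was not tested.

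Filaggrin and its neighbors split. Flg, which bundles keratin filaments in the granular layer, departed by 3.58 (3.07 to 4.09, adjusted p 0.00126). Its log2 ratio was 4.50 and 4.83 in dcKO, 0.86 and 1.27 in Sox4cKO, and −0.27 and 0.31 in Sox11cKO, where it was above background in 0 of 4 channels. Kprp, a keratinocyte proline-rich protein of the envelope, departed by 3.19 and Lelp1 by 2.58, and both were called. Flg2 departed by 2.72 with a wide interval (1.27 to 4.17) and an adjusted p of 0.544. Hrnr, Tchh and Rptn, which share the fused S100 structure, departed by −0.42, 0.07 and 0.70, none called.

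The rest of the envelope genes lay closer to the sum. The 6 Lce3 genes, Lce6a and the cysteine-rich Crct1 had a median departure of 0.29, with −0.19 in replicate 1 and 0.93 in replicate 2, and Lce6a came closest to a call (1.51, adjusted p 0.0921). The 13 Sprr genes on the array had a median of 0.25, and 4 were positive and 4 negative in both replicates. Sprr2d departed by 1.32 (0.78 to 1.86, adjusted p 0.232) and Sprr3 by −1.59 (−3.02 to −0.16, adjusted p 0.768). Across all named genes, 23.8% were positive and 26.3% negative in both replicates.

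Loricrin, involucrin and corneodesmosin were not called, and their values differed widely between the Sox11cKO arrays. Cdsn, which holds corneocytes together, read 1.44 and 2.12 in dcKO, −0.21 and 0.06 in Sox4cKO, and 0.20 and 3.68 in Sox11cKO. Its departure of −0.09 had an interval of −1.82 to 1.64. Ivl read 1.15 and 1.36 in dcKO and 0.33 and 2.30 in Sox11cKO, with a departure of −0.20 (−1.34 to 0.94), and Lor departed by −0.35 (−1.28 to 0.58). For these genes the Sox11cKO value of replicate 2 was the highest of all 6 arrays. Its wild-type channel read low, at a log2 level of 5.51 for Cdsn and 7.47 for Ivl, where wild type on the other arrays read 9.27 to 12.9 and 9.66 to 11.8. Departures inside those intervals were not detectable with this number of arrays. Krt1 departed by −0.44, and the brighter probes of Krt10 and Krt5 by 0.11 and −0.16. The protease gene Casp14 departed by 0.03 and the desmosomal cadherin gene Dsg1a by −0.09, and all these intervals held 0.

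The other genes called above the sum belong to several families. Tmem229b, which encodes a membrane protein, read 3.66 and 3.84 in dcKO and between −0.57 and 0.34 on the other arrays, for a departure of 4.03 (adjusted p 0.00126). It was above background in both channels of all 6 arrays, so its Sox11cKO term was measured. Its wild-type log2 level still differed between arrays: 10.2 and 7.22 on Sox4cKO, 6.23 and 6.60 on Sox11cKO, 8.3 and 6.59 on dcKO. Sdcbp2, a syntenin-related PDZ protein, departed by 3.67 (adjusted p 0.00126) and Krt72, a keratin known from the inner root sheath, by 3.49 (adjusted p 0.00178). In wild type Sdcbp2 read 10.3 and 6.46, 5.74 and 5.13, and 7.96 and 6.41 in the same order. Why the wild-type levels of Tmem229b and Sdcbp2 differed was not tested. The kinase gene Stk10, the ubiquitin ligase gene Lnx1, the thioredoxin reductase gene Txnrd1 and the glycerol-3-phosphate acyltransferase gene Gpat3 departed by 2.61, 2.74, 2.16 and 2.06. Klk7, a protease that cleaves corneodesmosomes in shedding, departed by 2.01 (1.49 to 2.53, adjusted p 0.0205) and was the only called gene of the 13 kallikreins and inhibitors. Its neighbor in function, Klk9, departed by 1.53 (adjusted p 0.103).

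Probes of a gene did not always read alike. The brighter of 2 Ncoa3 probes was not called (departure 0.03, against 2.53 for the other), a second Lelp1 probe departed by 0.01, and a second Lnx1 probe departed by 1.67 with an adjusted p of 0.06. Of the 40 probes called above the sum, 19 had some channel above background on both arrays of every genotype, 8 had one on only 1 of the 2 Sox11cKO arrays, and 13 had none on either. Their median log2 ratios were 2.93 in dcKO, −0.04 in Sox4cKO and −0.03 in Sox11cKO, and in 37 of 40 the dcKO value made up over 80% of the departure. When only the 20156 probes with signal in all 3 genotypes were tested, a choice made after seeing the data, 15 were called, 13 above and 2 below the sum, and all 15 were among the 49. Among genes called above the sum outside the Lce1 list, the AP-1 letters were found in 3 of 14 promoters, against 6.87% of all promoters. The SOX letters AACAAAG and AACAATG were found in 0 and 1 of the 14. Flg (TGAATCA) and Sdcbp2 (TGAGTCA) are among the 3 with AP-1 letters, a loose pattern in which N was any base. The last 120 bases before their starts are given with those letters in capitals (GRCm38.p6, chr3:93273426-93273545 and chr2:151572503-151572622, both plus strand).
Flg: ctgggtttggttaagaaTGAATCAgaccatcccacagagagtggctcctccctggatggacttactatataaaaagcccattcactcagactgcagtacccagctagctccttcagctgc
Sdcbp2: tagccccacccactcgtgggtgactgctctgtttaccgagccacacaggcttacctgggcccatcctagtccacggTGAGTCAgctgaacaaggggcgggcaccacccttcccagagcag

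**Figure D3:**
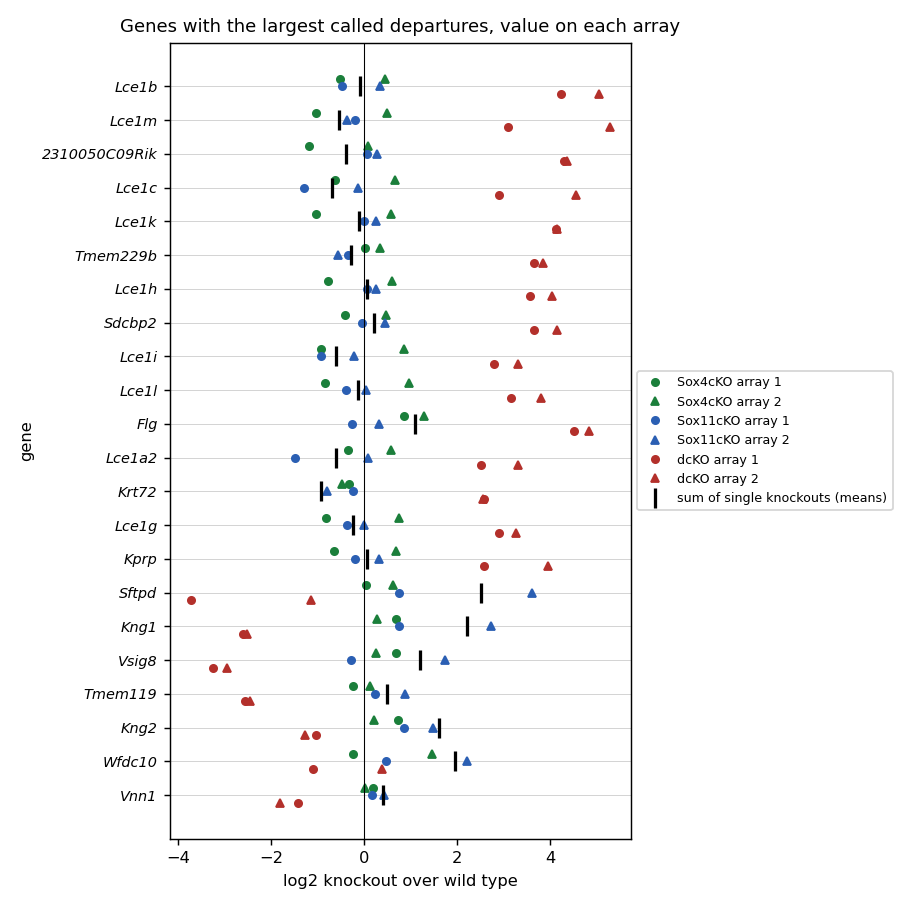
Log2 ratio (knockout over wild type) on each of the 6 arrays (circles replicate 1, triangles replicate 2) for the called genes with the largest departures, with the sum of the single-knockout means as a black bar. Above the sum the dcKO values stand apart from all others, and below the sum the bar is pulled up by the Sox11cKO array of replicate 2.

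Genes called below the sum were of another kind. Their median log2 ratio was −1.96 in dcKO, 0.33 in Sox4cKO and 1.2 in Sox11cKO, and their median departure was −2.99. The dcKO value made up over 80% of the departure in 2 of the 9 probes (Tmem119 and Vnn1), against 37 of 40 above the sum. On 9 of the 9 probes the highest value among the single-knockout arrays was that of Sox11cKO replicate 2. Sftpd, a secreted collectin of innate immunity, read −3.72 and −1.14 in dcKO, 0.04 and 0.62 in Sox4cKO, and 0.74 and 3.60 in Sox11cKO. The departure of this probe was −4.93 (adjusted p 0.0205), that of a second Sftpd probe −3.88 (adjusted p 0.00299). Kng1, a kininogen, departed by −4.77 (adjusted p 0.0253) with 2.72 on the same Sox11cKO array, but another Kng1 probe departed by 0.17, and without Sox4cKO replicate 1 the adjusted p of Kng1 was 0.0695 and that of Kng2 0.106. Kng2 and the protease inhibitor gene Wfdc10 departed by −2.77 and −2.32, and neither was above background in a dcKO knockout channel.

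Tmem119, a membrane protein gene, was called whichever of the 6 arrays was left out, at departures from −3.20 to −2.79. It read −2.57 and −2.45 in dcKO, −0.24 and 0.11 in Sox4cKO, and 0.23 and 0.87 in Sox11cKO, for a departure of −2.99 (−3.55 to −2.44, adjusted p 0.0031), and it was above background in both channels of all arrays. Vsig8, an immunoglobulin-domain membrane protein also measured in every channel, read −3.24 and −2.94 in dcKO and 1.73 on Sox11cKO replicate 2, but its adjusted p was 0.0487 and rose to 0.108 without Sox4cKO replicate 1. The pantetheinase gene Vnn1 departed by −2.01 (adjusted p 0.0373), was above background in 0 of 4 Sox11cKO channels, and passed the test in only 1 of the 6 fits that left out an array. Without Sox11cKO replicate 2 the adjusted p was 0.146 for one Sftpd probe and 0.0357 for the other, 0.0911 for Kng2 and 0.0891 for Wfdc10. Over all probes 23 were then called, 18 above and 5 below the sum, and without dcKO replicate 2 there were 93, 67 above and 26 below.

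Just outside the threshold above the sum lay Plcxd1 (departure 1.60, adjusted p 0.0591), Ifitm7 (1.65, 0.0645), Mxd1 (1.70, 0.0653), Sun1 (1.99, 0.0899) and Gas7 (1.68, 0.0921). Below the sum lay 2310057N15Rik (−4.51, 0.0934), Ahsg (−1.61, 0.0998) and a probe without a gene name (−4.38, 0.091). Mxd1 encodes a MAX-binding repressor that is raised as keratinocytes differentiate, and it read 1.65 and 1.76 in dcKO and between −0.23 and 0.24 elsewhere. Other references were set only against the called probes. Above the sum the single-knockout medians of these probes were −0.04 in Sox4cKO and −0.03 in Sox11cKO. The references nearly coincide there, so their agreement is no test of the choice of reference. When the single-knockout changes were added as linear changes in place of log2 values, 48 of the 49 still departed by more than 1.5 in both replicates and the same direction. Against the larger single-knockout change alone, all 49 differed by more than 1.5 in the same direction. In the direct tests, 53 probes differed from each single knockout by more than 1.5 in the same direction, at an adjusted p below 0.05. By the adjusted p alone, 45 of the 49 called probes differed from each single knockout.

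Genes that the study had listed as activated by Sox4 and Sox11 lay near the sum. That list was chosen by the study partly on these same samples, so its lower values in dcKO are no independent evidence. The study also required binding by SOX11 or SOX4, lower expression in dcKO keratinocytes, and higher expression in early embryonic and wound-edge epidermis. It states a focus on probes altered in dcKO but in neither single knockout, which bears on the departure too. All 25 genes read lower on both dcKO arrays, 18 on both Sox4cKO arrays and 9 on both Sox11cKO arrays. Their median log2 ratio was −0.87 in dcKO, −0.60 in Sox4cKO and −0.07 in Sox11cKO, and the median departure was −0.16, with 0 called. In dcKO against wild type 12 of the 25 passed an adjusted p of 0.05 (0.608% of all named genes passed it as lower and 0.982% as higher), all of them lower. In dcKO minus Sox4cKO the median was −0.25, none passed, and the lowest adjusted p was 0.329.

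Tes, a LIM-domain protein of focal adhesions that is not on that list, was called in Sox4cKO alone. It read −1.38 and −1.68 in Sox4cKO, 0.12 and 0.14 in Sox11cKO, and −1.64 and −1.60 in dcKO. Its dcKO values lay within those of Sox4cKO, and the departure was −0.22 (−0.75 to 0.30). Tmsb10, which binds actin monomers, read −1.12 and −1.15, −0.02 and −0.42, and −1.19 and −1.39 in the same order, with a departure of 0.06 (−0.46 to 0.58). The actin bundler gene Fscn1 departed by 0.19 (−0.32 to 0.70), the brighter Tead2 probe by 0.28 (−0.28 to 0.84) and the filamin binder gene Fblim1 by −0.42 (−0.97 to 0.14). A p above the threshold does not show that these genes follow the sum, and the intervals give what departure the arrays allow.

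Some listed genes swung with the array. Lgals1 read −2.05 and 0.24 and Twist2 −2.57 and 1.13 on the Sox4cKO arrays. These are expressed in dermal fibroblasts as well, and the 17 dermal markers swung alike: their median channel level on Sox4cKO array 1 was 9.04 in wild type and 6.72 in the knockout, and on array 2 6.50 and 7.49. In bulk samples fewer cells of a type and less RNA per cell cannot be told apart. The part of dermal cells in these values was not tested. Among the 4 genes listed as repressed, all departed above 0 in both replicates (median 0.41), as 23.8% of named genes did, and none was called. The study chose these genes too partly on these same samples, so their direction is no independent evidence.

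Keratins of the periderm, the simple epithelia and stressed epidermis pointed below the sum without a called gene. Of 11 genes, 7 departed below 0 in both replicates and 1 above, with a median of −0.45. Periderm is the flat outer layer that covers the embryonic epidermis until the barrier forms, and Krt4 is among its keratins. Krt4 read 1.19 and 0.78 in Sox4cKO, −1.45 and −1.51 in Sox11cKO, and −1.27 and −1.72 in dcKO. The single knockouts thus had opposite signs on every array and dcKO read like Sox11cKO, for a departure of −1.01 (−1.54 to −0.47, adjusted p 0.544). The log2 level of Krt4 in wild type was 9.77 and 10.8 on the Sox11cKO arrays, 6.62 and 7.48 on the Sox4cKO arrays and 7.08 and 7.58 on the dcKO arrays, and why the wild types differed was not tested. Krt19 departed by −0.99 with the same order of signs, and Krt6a and Krt6b by −1.13 and −1.37. Against Sox4cKO alone the list's median in dcKO was −1.14, and 2 of the 11 passed an adjusted p of 0.05 (0.276% of named genes did). Against Sox11cKO the list's median was −0.16 and none passed (0.313% of named genes did).

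**Figure D4:**
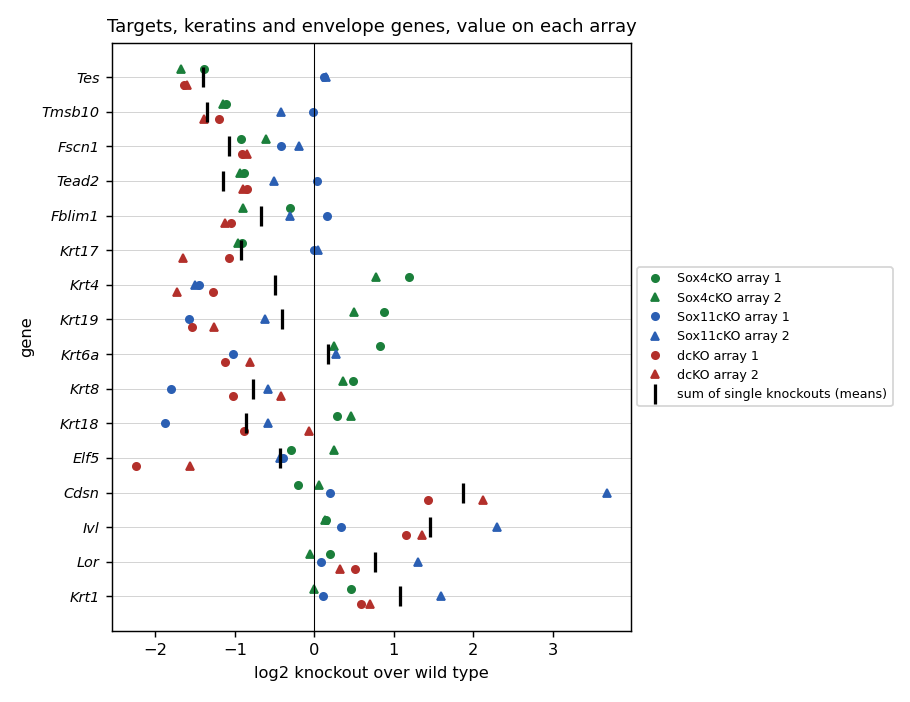
Log2 ratio (knockout over wild type) on each of the 6 arrays for adhesion and actin genes, keratins, Elf5 and envelope genes, with the sum of the single-knockout means as a black bar. The Tes values of dcKO fall on the Sox4cKO values near the bar, Krt4 has Sox4cKO above 0 and the other genotypes below, and Cdsn and Ivl carry their highest value on the Sox11cKO array of replicate 2.

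Probes called in dcKO were set against the sum as well. Of these 115 probes, 45 had a called departure, where 0.088% of all probes did. The unadjusted 95% interval of the departure excluded 0 for 6.38% of all probes. For the 115 it lay beyond the sum for 105, held 0 for 10 and lay short of the sum for 0. The 115 were chosen by their dcKO values, which also enter the departure, so this split is a description. Closest to the sum was Hal, histidine ammonia-lyase of the cornified layer, at 2.31 and 1.54 in dcKO and 1.58 and 1.88 in Sox11cKO, with a departure of −0.02 (−0.75 to 0.72). Mt4, a metallothionein of stratified epithelia, departed by 0.61 and the inflammasome gene Nlrp10 by 0.79. Mt4 was above background in no Sox11cKO channel and no dcKO wild-type channel, so its sum lacked a measured Sox11cKO term.

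Most of the largest sums leaned on 1 array. Krtap13, a hair keratin-associated protein, had the largest sum with an opposed departure, 3.43, from 0.67 and 6.04 in Sox11cKO, and read −3.94 and −0.20 in dcKO. Its departure of −5.50 ran from −7.77 to −3.23 with an adjusted p of 0.255. For 2310034C09Rik, Fetub and Saa2 the Sox11cKO arrays read 0.58 and 4.96, 0.88 and 3.22, and 1.19 and 3.22. In each the value of replicate 2 was the high one.

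Regulators and signaling genes gave few departures. Elf5, an ETS factor of differentiating epithelia, read −2.25 and −1.57 in dcKO and between −0.43 and 0.25 on the other arrays. Its departure was −1.47 (−2.08 to −0.86, adjusted p 0.256). Maf, a factor of late keratinocyte differentiation, departed by 1.03, the EGF receptor ligand gene Btc by 1.90 (adjusted p 0.306) and Bmp4 by −0.97, none called. The alarmin gene Il18 read 3.40 and 3.06 in dcKO, but −2.48 on 1 Sox4cKO array and 1.98 on 1 Sox11cKO array, and its departure of 3.40 ran from 1.31 to 5.48 (adjusted p 0.68). The lists for cell cycle, tight junctions, Notch, Wnt, actin, integrins and barrier lipids had medians between −0.15 and 0.06, with 0 called.

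**Figure D5:**
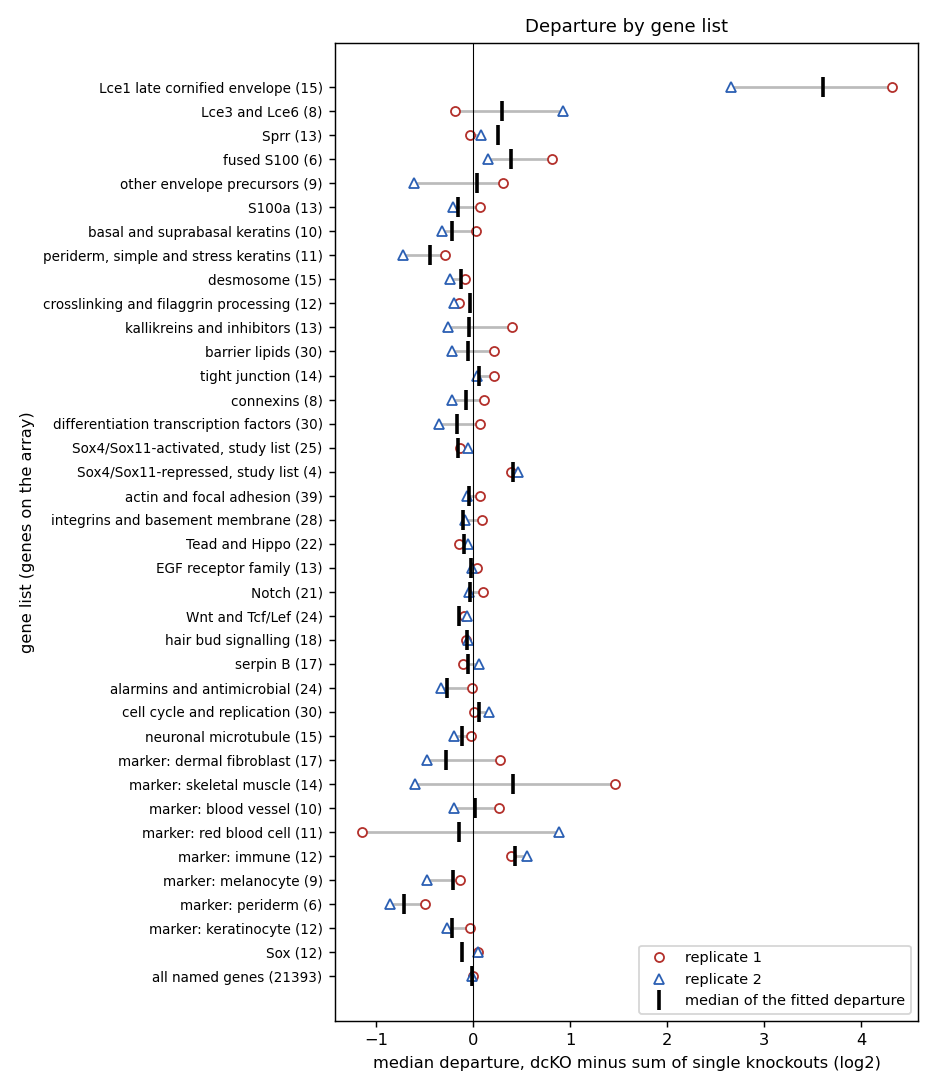
Median departure of each gene list in replicate 1 (circles), in replicate 2 (triangles) and from the fit (black bar), with the number of genes on the array in brackets. The Lce1 list stands at 3.60, and the medians of the other lists lie between −0.72 (periderm markers) and 0.43 (immune markers).

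Markers of other cells were read beside these values. The 12 keratinocyte markers had median channel levels between 14.2 and 14.7 in every channel. Of 12 immune markers, 7 departed above 0 in both replicates (median 0.43). Cd68 and Cd74 departed by 1.23 and 0.99, not called. The highest mean log2 ratio of an immune marker in dcKO was 0.49. The medians of the dermal, muscle and red blood cell lists turned sign between the replicates, from 0.27 to −0.48, from 1.46 to −0.61 and from −1.15 to 0.88. The part of these cells in the departures was not tested.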

How the data were processed

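The authors hybridized knockout and wild-type littermate RNA in opposite dyes on 2-color Agilent arrays and read them with Agilent Feature Extraction 11.0.1.1. The scanner files hold intensity values and log10 ratios as deposited. The deposited series table holds log2 ratios, which the authors made in limma 3.5 by normexp background correction (offset 16) and loess within arrays. Recomputed from the intensities, these values had the same scale, centring and direction as knockout over wild type. The study's methods also name a removal of color effects, which the deposited log2 ratios do not contain.

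The fit used the deposited log2 ratios of 55681 probes, without control probes, of which 28414 were named (21393 symbols). Outlier spots were left out only in the alternative settings recomputed from the scanner files. For a gene with several probes the brightest was used. One limma 3.58.1 model (R 4.3.3) held 3 genotype coefficients and the replicate number, which is also the dye orientation. Same-numbered arrays deviated together (correlations 0.259, 0.306 and 0.328), so this term stayed in. With 6 arrays there were 2 residual degrees of freedom. The departure was a contrast, with p-values adjusted by Benjamini-Hochberg over all probes. P-values measure the spread between these arrays only. A probe counted as measured in a genotype when a channel was well above background on both its arrays. Genes were named by size of departure among called genes, by up to 4 genes per list, by a set-out group and by closeness to the sum. The members and lists were chosen with earlier results of these data known. Promoters come from RefSeq (GRCm38.p6) and matched 27 of 31 genes called above and 3 of 7 called below the sum. The scripts were tested on simulated data.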

Additional observations from a re-analysis of the deposited data

Results flagged for a closer look

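In 53 probes the dcKO value differed from that of each single knockout in the same direction, at an adjusted p below 0.05 (limma) and a difference above 1.5. Among listed genes measured in all 3 genotypes, 8 had both Sox4cKO arrays on one side of 0, both Sox11cKO arrays on the other and a difference above 1.5 between the means. Further listed genes did so with smaller differences, and the difference between these genotypes was not tested. As Sox4cKO minus Sox11cKO on the log2 scale it was 2.46 for Krt4, 1.79 for Krt19, 1.61 for Krt8 and 1.60 for Krt18, all simple or periderm keratins. It was −2.32 for Il18 and −2.10 for Il1f6, both interleukin-1 family genes, −1.67 for the muscle gene Myl1 and −1.66 for Tes.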

How the results depend on the processing

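All 49 called departures kept their sign in every other setting run over them, and 26 of 26 did among probes measured in all 3 genotypes. The number called was 0 with the Feature Extraction log ratio (3402 at an unadjusted p below 0.05, lowest adjusted p 0.497; prior degrees of freedom 0.581 against 6.65), 24 without the replicate block, 30 with only probes above background on 2 or more arrays, and 15 with only probes measured in all 3 genotypes, an alternative chosen after seeing the data. Leaving out each array gave 23 (without Sox11cKO replicate 2, 22 of them among the 49) to 93 (without dcKO replicate 2). The other settings gave 48 to 66. dcKO alone gave 0 called probes with the Feature Extraction log ratio, against 115. The single knockouts, 3 in the fit used, gave 1 with an offset of 50, 8 without background subtraction, 0 with the Feature Extraction log ratio, 0 with only probes above background, 5 with trended variance, and 1 to 51 with an array left out. Agreement in sign between replicates, 49.9%, was 49.4% without background subtraction, 39.7% with median centring, 46.5% with the Feature Extraction log ratio and 50.6% above background. The median of the Lce1 list stayed between 3.05 and 4.24, while its called genes numbered 6 without the replicate block, 9 above background, 9 with trended variance, 8 without Sox11cKO replicate 2 and 3 among probes measured in all genotypes. Of 1681 values for single probes, called or not in the fit used, 1471 kept that state, which includes probes that were never called. A call was lost in 188 and gained in 22, and 0 called values reversed, while 45 values that were not called changed sign. The cause of these shifts was not tested. Signal near background in Sox11cKO limits the sum for most Lce1 genes.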
